A study of Drosophila melanogaster with 1908 samples.

Results

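These are 100 Drosophila melanogaster genes known in the deposited count matrix only by a computed gene number (CG plus digits), whose transcripts reached their highest level in the last collection of the embryo time course. They were drawn from 6506 rows with such names among 23932 gene rows. A row was kept when its mean level was highest at 16 to 20 h after egg laying and reached at least 20 CPM (a row's share of all counts, scaled to a fixed total) there in each of the 3 experiments that hold this window. Both limits were met by 3.87% of these rows, and the 100 with the highest ratio were taken. The ratio divides the level at 16 to 20 h by the highest level of any window up to 10 to 14 h, with 1 CPM added to both. The time course therefore chose the genes, and it is given below as a description with no test.

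Whole wild-type embryos of the Canton S strain, aged at 25 °C, were collected in 11 overlapping windows, and their nuclei were profiled by sci-RNA-seq3, a single-nucleus method in which combinations of barcodes added in plate wells identify each nucleus and unique molecular identifiers (UMIs) count its transcripts. The matrix holds 547805 nuclei of 7 experiments, and 0 of them share both well and barcode with another. No source used here states that the experiments came from separate egg collections, so the spread between them may be technical. The main tests below set aside each experiment's own level. Their p-values measure how differences between groups of nuclei or windows vary across experiments. UMIs were summed per experiment and window (38 sums), and experiments 1, 3 and 10 gave 18779, 3916 and 56990 nuclei at 16 to 20 h, with 8920030, 1944561 and 36032867 UMIs. Intervals and limits on these counts would cover counting error only. In sums over whole embryos, fewer nuclei of a type and less RNA per nucleus cannot be told apart.

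In the last hours before hatching the fly embryo completes its larval body. The epidermis and the tracheal tubes, which share an ectodermal origin, secrete the chitin and protein layers of the first cuticle together with lipids that seal it against water loss, while muscles contract and neurons form working synapses. A CG number was given to each predicted gene of the fly genome, and a gene keeps it as its only name until a function or mutant is described.

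All 100 genes are annotated as protein coding, and 7 of them have since been given names. Those 7 are osy (CG33970), which encodes an ABC transporter needed for the lipid barrier of the cuticle, flap (CG11073), js (CG14880), CtsL2 (CG6347), which encodes a cathepsin L-like protease, Sdb (CG30069), Dpp10 (CG11319), which encodes a member of the dipeptidyl peptidase family, and myd (CG31475). The encoded proteins had a median of 540.5 residues (quartiles 328.75 to 861, up to 4012), against 314.5 residues for the 6500 coding rows of the same kind of name. Only 1 of the 100 has a single exon (1.0%), compared with 20.9% of those rows. Among the 20 genes with the highest ratios, 25.0% encode proteins under 200 residues, compared with 9.0% of the 100 and 29.7% of the rows of that kind of name.

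The genes lie on every large chromosome arm, with 13 on 2L, 25 on 2R, 22 on 3L, 19 on 3R and 21 on X. Neighbours were few. A single run of 3 adjacent genes (CG13049, CG13048 and CG13047) spans 3L:16281132-16285396 in the BDGP6.54 annotation, and the pairs CG6337 with CtsL2 and CG7330 with CG13699 are also adjacent. In all, 7 genes are next to another of the 100. Exons of 23 genes overlap those of another gene, for example CG2962 with ATPsyndelta, CG9083 with Tpc2 and CG15615 with CG15919, each on the opposite strand. No source used here says whether strand was used in counting, so reads from these overlaps cannot be assigned with certainty.

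The genes together took 1.70%, 1.39% and 1.83% of all UMIs at 16 to 20 h in experiments 1, 3 and 10. The same share was 0.909%, 0.765% and 0.803% at 12 to 16 h, and 0.385%, 0.322% and 0.351% at 10 to 14 h. In the window between 12 to 16 h and 16 to 20 h it dipped, to 0.601%, 0.375% and 0.480% at 14 to 18 h. No sum of the windows up to 8 to 12 h exceeded 0.119%. The order of these 4 windows was the same in all 3 experiments, though the rule itself required the mean to be highest at 16 to 20 h. It also ranked the genes by the distance of that window from those up to 10 to 14 h. The sums at 14 to 18 h lay below those at 12 to 16 h without overlap, and they overlapped those at 10 to 14 h.

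**Figure D1:**
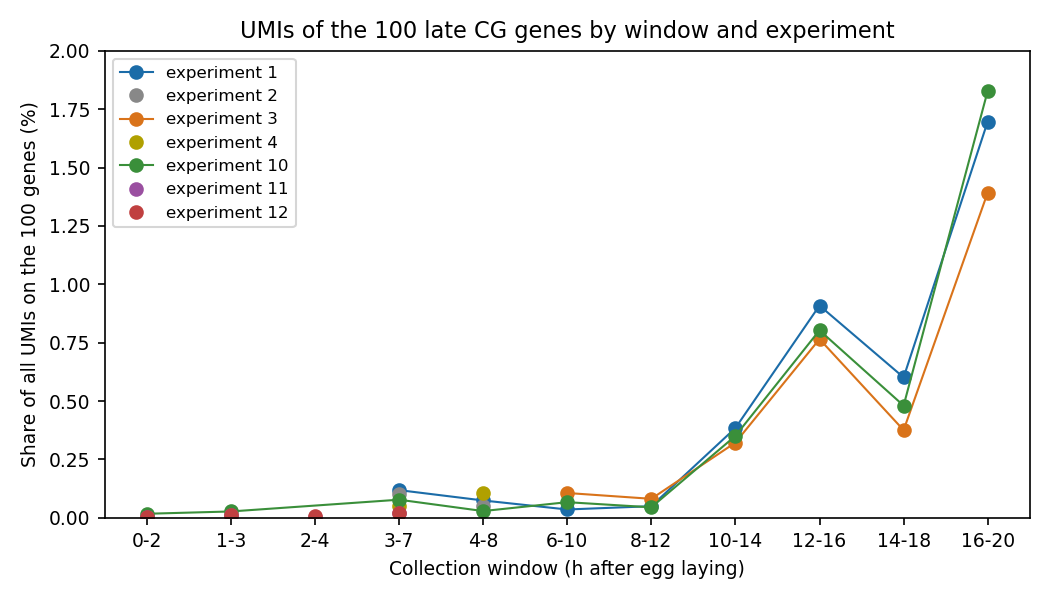
Percentage of all UMIs that fell on the 100 genes (vertical axis) in each collection window in hours after egg laying (horizontal axis), with 1 point for each experiment. The share reached 1.39% to 1.83% at 16 to 20 h and was lower at 14 to 18 h (0.375% to 0.601%) than at 12 to 16 h (0.765% to 0.909%).

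The ratio that ranked the genes ran from 19.9 to 2.27 with a median of 3.87. It was at least 10 for 13 genes and at least 5 for 38. None of the 100 was under 1 CPM in all earlier windows, 26 stayed under 10 CPM, and the median of the highest early level was 20.6 CPM. For 93 genes that early maximum was in the 10 to 14 h window. The level at 12 to 16 h was already a median of 55.5% of the level at 16 to 20 h, from 12.7% to 97.9%, and 25 genes were above 75%. At the limit of the list, CG3106 (rank 99) had a ratio of 2.277 and CG33143 (rank 100) 2.273, while CG43066 and CG11409, the next 2 genes, both had 2.225.

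Levels at 16 to 20 h spread widely, from a mean of 26.6 to 2095 CPM with a median of 83.8 CPM. The first 10 genes by level held 43.8% of the summed mean CPM of the list and CG2962 alone held 12.8%. The highest experiment exceeded the lowest by a median of 1.84 times. That factor was under 1.5 for 31 genes and over 2 for 41. Experiment 3 was the lowest for 51 genes and experiment 10 for 41.

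The genes at the top of the ratio were low until 10 to 14 h. CG12523 (3L:10801190-10802350, a single exon coding for 250 residues) was at 1.74 CPM or less up to 10 to 14 h. At 16 to 20 h it was at 52.58, 53.997 and 53.92 CPM in experiments 1, 3 and 10. CG34461 (3L:8325859-8328307), which encodes a small protein of the chitin-binding cuticle family, went from at most 5.33 CPM to 126.3, 96.7 and 121.4 CPM. CG12164 (2R:7311395-7313495) went from at most 4.33 CPM to 69.3, 126.5 and 77.9 CPM. For CG12164 the highest value, in experiment 3, included 39.4% of UMIs from 1 nucleus. CG2150 (3R:31763304-31764772) was at 324.6, 475.7 and 370.1 CPM, and 29.8% of its UMIs in experiment 3 came from 1 nucleus. CG32694 (X:9989690-10006882) was at 331.2, 397.5 and 199.98 CPM against at most 20.9 CPM up to 10 to 14 h. Experiment 3 gave the highest value for 4 of these 5 genes.

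CG15740 was at 199.6, 146.6 and 325.8 CPM in experiments 1, 3 and 10, against at most 14.99 CPM up to 10 to 14 h. CG13059 was at 68.5, 37.5 and 46.96 CPM, against at most 2.71 CPM, and CG15615 at 135.8, 83.8 and 120.7 CPM, against at most 8.64 CPM. Experiment 3 gave the lowest value in each of the 3. More than 10% of an experiment's UMIs came from 1 nucleus for 22 of the 100 genes.

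The most abundant genes mostly had lower ratios, and only CG2150 was among the first 10 by both measures. CG2962 (X:10214858-10216642) was at 2111, 1144 and 3030 CPM in experiments 1, 3 and 10, and had been at 184.7 CPM at 10 to 14 h. It had a UMI in 26.5%, 14.2% and 56.3% of the nuclei of these experiments, which is 32103 of 56990 nuclei in experiment 10. CG9411 (X:14472408-14480086) followed with 1008, 612.5 and 1032 CPM, and CG9083 (2R:24898273-24899505) with 807.6, 312.7 and 1092 CPM. All 3 genes were lowest in experiment 3. CG43897 (3L:9813847-9834345) had the opposite order, with 523.7, 975.03 and 319.5 CPM. CG10211 (2L:18517487-18531967), which encodes a heme peroxidase, was at 668.2, 471.6 and 614.2 CPM, and CG3108, of the metallocarboxypeptidase family, at 499.6, 358.4 and 825.3 CPM. CG9747, of the acyl-CoA desaturase family, was at 480.4, 413.98 and 586.2 CPM, CG4115, with a C-type lectin domain, at 472.4, 179.5 and 674.7 CPM, and CG43333 at 300.8, 371.8 and 480.03 CPM. The widest gap between experiments among the named genes was 4.16 times, for CG15731 with 280.2, 145.02 and 603.9 CPM.

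The rule leaves out rows with other names, and the same limits were applied to all rows to count those. Of the rows at or above the ratio of rank 100, 38.9% are the genes described here, and the remaining rows are called other late rows below. Cuticle families are among the others: 13 of 24 Tweedle (Twdl) rows, 8 of 70 Cpr rows, 7 of 25 Osiris (Osi) rows, 2 of 4 Vajk rows and 2 of 8 obst- rows. Of the 16 Jon rows, digestive serine proteases, none reached the limit. Only 1 of the 100, CG14257, is next to a row of these families in the genome (Cpr97Ea).

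Which nuclei of the last window carried the transcripts was compared by marker lists, a contrast between nuclei of 1 window that the rule did not use. A nucleus was assigned to a list when UMIs of at least 2 of its markers, and of more markers than of any other list, were found in it. Lists with at least 30 nuclei in at least 2 experiments entered the fit, which left the epidermal, tracheal, neuronal, glial, somatic muscle, fat body and plasmatocyte lists. The epidermal list took 9.71%, 9.42% and 3.13% of nuclei in experiments 1, 3 and 10, the tracheal list 5.99%, 4.09% and 2.31%, and the neuronal list 13.6%, 18.3% and 2.92%. The somatic muscle list took 35.6%, 31.1% and 77.1%, so experiment 10 stood apart in its make-up. The glial list took 0.81%, 0.92% and 0.17%, which is 36 nuclei in experiment 3.

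The gates differ in how well their own markers lead them. Among the 10 genes with the highest fold in each gate, the list's own markers made up 6 for plasmatocytes, 5 for somatic muscle, 3 each for epidermis and glia, 2 for fat body and 1 for neurons. They made up 0 for the tracheal list, whose gate was led by genes such as Muc96D, Muc26B, TwdlH, Cpr47Ec and Cpr65Ec. The fat body gate had as many midgut as fat body markers there, and the neuronal gate likewise had 1 marker of another list beside its own 1. The tracheal gate therefore stands only for nuclei with UMIs of tracheal markers. Both cuticle-forming lists also reached into each other's gate: the epidermal list took 0.473% to 0.683% of UMIs in the tracheal gate and 1.60% to 2.18% in its own, and the tracheal list 0.713% to 0.765% in the epidermal gate and 1.97% to 2.37% in its own. The somatic muscle list took 2.29% to 9.80% of UMIs in its own gate and 0.12% to 0.82% in the others. Its part in the results below was not tested.

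Of the 100 genes, all of which passed the filter on low counts, 95 were higher in at least 1 gate than in the mean of the other gates (edgeR quasi-likelihood test, experiment as a block, Benjamini-Hochberg adjusted p under 0.05). The same was true of 48.2% of the 5871 genes tested, of 54.3% of those at 20 CPM or more in each experiment, and of 92.4% of the other late rows. A call in some gate was therefore about as frequent among late rows with other names. Lower calls in at least 1 gate were made for 32 of the 100, against 13.3% of all genes, 17.8% of those at 20 CPM or more and 41.4% of the other late rows.

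The tracheal gate had the highest count of higher calls, with 68 of the 100 genes against 8.24% of all genes tested. The median log2 fold change of the 100 there was 1.76, and that of all genes 0.00. In the epidermal gate 44 genes were called higher against 9.49% of all genes, with a median log2 fold change of 0.98 against 0.03. Of the other late rows, 43.3% were higher in the tracheal gate and 23.6% in the epidermal gate. Among genes at 20 CPM or more the shares were 9.86% and 11.9%. In the neuronal gate 16 genes were higher against 18.2% of all genes, and in the muscle gate 7 against 6.42%, both near the background. Of the other late rows 29.9% and 14.6% were higher in these gates. The muscle count was 3 without experiment 1, 12 without experiment 10, 12 without TMM factors, 15 with the gate scaled to depth and 17 with no filter on low counts. The median log2 fold change of the 100, in the same order, was 0.47, 0.60, 0.357, -0.53 and 0.44. That of all genes was 0.21, 0.23, 0.365, -0.097 and 0.74. With the gate scaled to depth 6 of the 100 were also called lower. Shares of all genes called in single gates were counted under the main settings only. Of the 100, 1 gene each was higher in the glial gate (1.18% of all genes) and the plasmatocyte gate (3.65%). No gene of the 100 was higher in the fat body gate, where 10.3% of all genes were. At an unadjusted p under 0.05 the count was still 0, and DESeq2 also called 0.

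**Figure D2:**
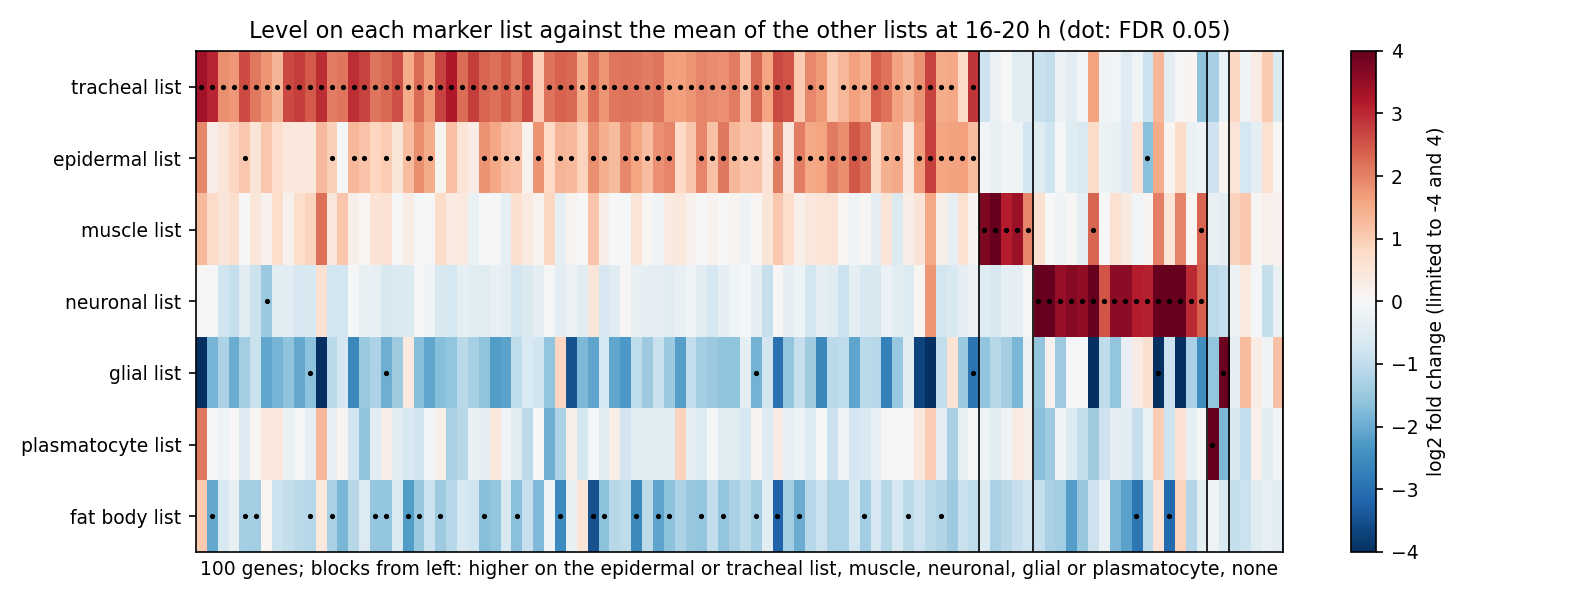
Log2 fold change of each of the 100 genes at 16 to 20 h in nuclei gated on each marker list against the mean of the other lists (edgeR), with the genes called higher or lower marked. The median of the 100 was 1.76 for the tracheal list (68 higher) and 0.98 for the epidermal list (44 higher).

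The calls fell into a few patterns. The epidermal or the tracheal gate was higher for 72 genes, of which 40 were called in both, 28 in the tracheal gate alone and 4 in the epidermal gate alone. A call in 1 of these gates and not the other is no test of a difference between them. A further 14 genes were called in the neuronal gate, 2 in the neuronal and muscle gates (CG11319 and CG33143), 5 in the muscle gate, 1 in the glial and 1 in the plasmatocyte gate. No gate was called for CG3106, CG13492, CG1572, CG30069 and CG13047. The 38 genes with a ratio of 5 or more were all among the 72, whose median ratio was 5.23. The best rank of a gene called in the muscle gate was 45, and in the neuronal gate 46. The 72 genes held 83.03% of the CPM of the list, the 5 muscle genes 7.99% and the 16 neuronal genes 5.87%.

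Across all 100 genes together, the share of UMIs was highest in the tracheal gate, with 3.798%, 4.20% and 3.01% in experiments 1, 3 and 10. The epidermal gate had 2.44%, 2.21% and 2.24%, and the muscle gate 1.77%, 1.75% and 1.81%. The neuronal gate had 1.23%, 0.890% and 1.36%. The tracheal values lay above all others and the epidermal values above the remaining gates in every experiment. The fat body gate ranged most, with 0.384%, 0.0890% and 1.07%, and its value was highest in experiment 10, as was that of the glial gate (0.674%, 0.914% and 1.46%) and the plasmatocyte gate (1.04%, 0.525% and 1.62%). In experiment 10, where the muscle list had taken 77.1% of nuclei, that list also made up more UMIs of the other gates, from 0.445% to 0.819% against 0.122% to 0.490% in experiments 1 and 3. Its part in the values of the 100 genes was not tested.

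Among the 72, the tracheal gate gave the largest fold changes. CG12523 was at 128.7, 208.2 and 144.4 CPM in that gate in experiments 1, 3 and 10, and at 104.3 CPM or less in every sum of the other gates. All 3 glial sums were at 0 for this gene, and a fitted fold change that includes such sums depends on the prior count and is no bound. Its log2 fold change was 3.36 (SE 0.61, adjusted p = 0.000185, edgeR). Flap (CG11073, 2R:22091489-22099534) was at 194.2, 371.8 and 134.1 CPM in the tracheal gate against 72.3 CPM or less elsewhere, with a log2 fold change of 3.20 (SE 0.37, adjusted p = 1.48e-07, edgeR). CG34461 was at 437.6, 639.5 and 231.03 CPM there and at 143.4 CPM or less elsewhere (3.05, SE 0.35, adjusted p = 1.23e-07, edgeR). CG12523, flap and CG34461 were named for the largest fold changes called in the tracheal gate, a choice that favours values clear of the other gates. None of them overlapped between the tracheal gate and the others, and the share of all genes free of overlap was not counted.

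The abundant CG2962 was at 5223, 6143 and 4099 CPM in the tracheal gate. Its other values reached 3058 CPM, in the muscle gate, and 2819 CPM in the epidermal gate, both in experiment 10, so the tracheal gate stood above every other sum. Its log2 fold change was 2.46 (SE 0.30, adjusted p = 3.63e-07, edgeR). CG9083 was at 2118, 1458 and 1580 CPM in the tracheal gate (2.03, SE 0.29, adjusted p = 6.76e-06, edgeR) and CG32694 at 1177, 1770 and 990.1 CPM (2.62, SE 0.22, adjusted p = 5.30e-10, edgeR). CG32694 was also called in the epidermal gate, with 503.6, 614.3 and 345.7 CPM. All of the first 10 genes by ratio were called in the tracheal gate, CG15731 with 2.75 (SE 0.35, adjusted p = 9.02e-07, edgeR) and CG15615 with 2.65 (SE 0.36, adjusted p = 2.71e-06, edgeR).

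For a smaller set the epidermal gate was the higher one. CG5639 (3R:27586474-27596130, 1511 residues) was at 431.2, 614.3 and 297.3 CPM in the epidermal gate and at 351.03, 297.5 and 224.8 CPM in the tracheal gate, and at 106.03 CPM or less elsewhere. The 2 gates overlapped and the rest lay below both. Its log2 fold change in the epidermal gate was 2.48 (SE 0.27, adjusted p = 7.55e-08, edgeR). The gene myd (CG31475) reached 2.74 (SE 0.64, adjusted p = 0.00312, edgeR) on low levels of 52.9, 47.3 and 51.2 CPM. CG43333 was at 820.7, 1566 and 943.1 CPM in the epidermal gate (2.19, SE 0.32, adjusted p = 8.29e-06, edgeR), above its 697.4, 966.7 and 629.1 CPM in the tracheal gate in each experiment. CG10211 was at 1541, 1708 and 1313 CPM in the epidermal gate (2.10, SE 0.29, adjusted p = 2.29e-06, edgeR) and at 1608, 1577 and 1116 CPM in the tracheal gate. CG9411 had 2310, 2005 and 1441 CPM and 2312, 1577 and 1601 CPM in the same gates. Neither CG10211 nor CG9411 ordered the 2 gates the same way in all 3 experiments.

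**Figure D3:**
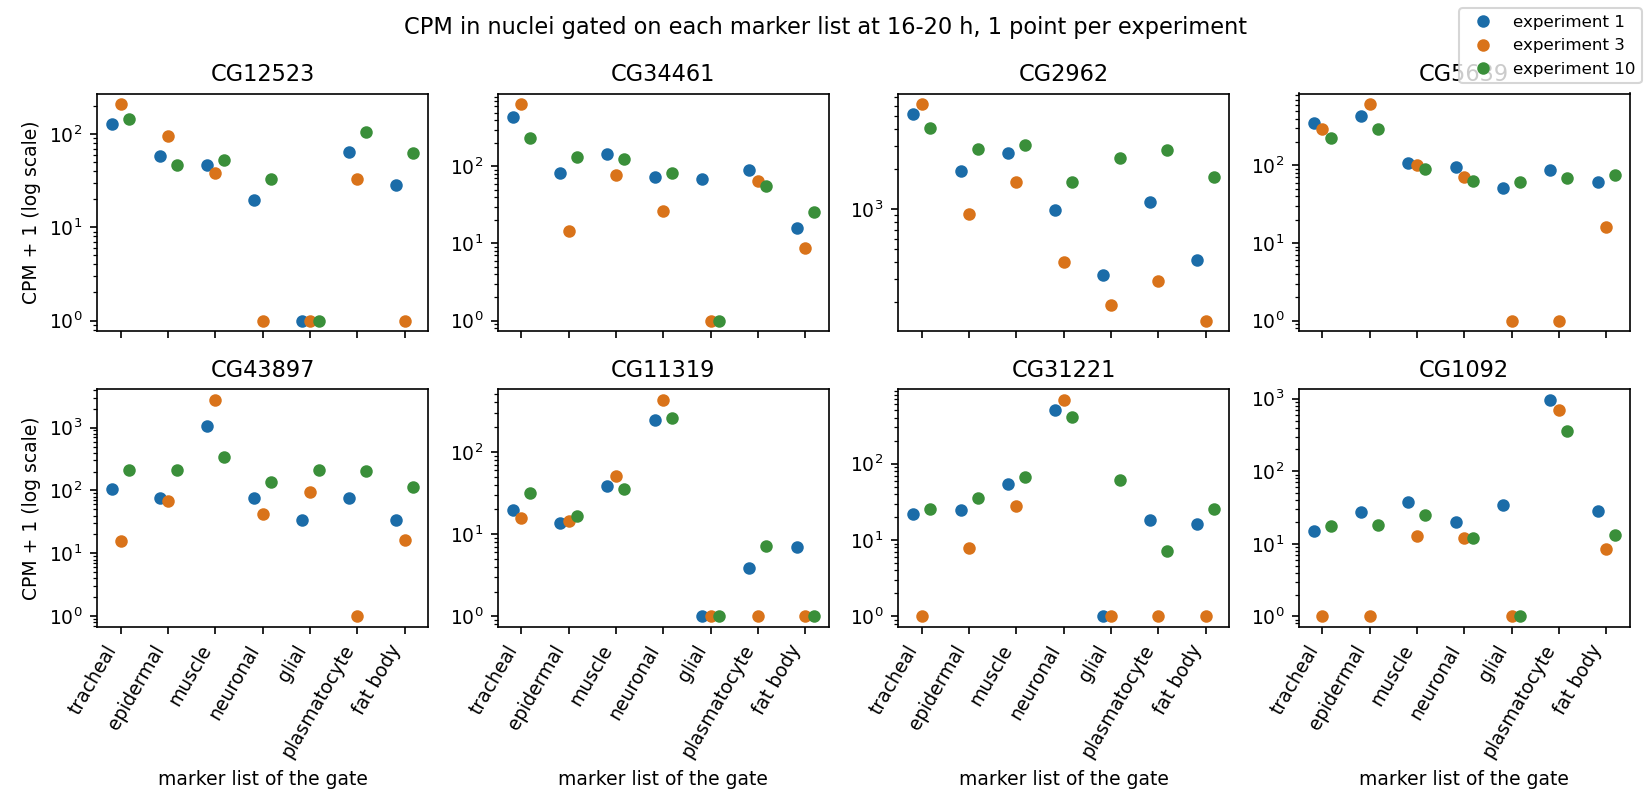
Level in CPM of 8 of the genes at 16 to 20 h in nuclei gated on each marker list, with 1 point for each experiment. CG2962 reached 4099 to 6143 CPM on the tracheal list, CG11319 239.1 to 423.1 CPM on the neuronal list and CG43897 338.98 to 2724 CPM on the somatic muscle list.

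Several of the 72 belong to enzyme and transporter families, and these were picked by annotation after the values had been seen, with no test of the group. Lipid enzymes were among them. CG9747 (desaturase family), CG5326 (fatty acid elongase family) and the fatty acyl-CoA reductases CG1441, CG30427 and CG8303, enzymes that lengthen, desaturate or reduce fatty acids on the way to waxes and hydrocarbons, were all called higher in the tracheal gate, with log2 fold changes of 2.09, 2.62, 2.23, 2.59 and 1.91. Their mean levels at 16 to 20 h were 493.5, 111.7, 60.8, 110.1 and 93.1 CPM. The ABC transporters osy and CG11147 were higher there by 2.94 and 2.77, and the CRAL-TRIO protein CG10657, of a family that carries small lipids, by 2.30. CG2663, another member of the CRAL-TRIO family, was called in the epidermal gate (1.64, adjusted p = 0.000536, edgeR) and had 0.75 in the tracheal gate (adjusted p = 0.305, edgeR). Osy was at 278.5, 535.4 and 294.97 CPM in the tracheal gate, 116.8, 189.003 and 91.04 CPM in the epidermal gate and 98.4 CPM or less elsewhere.

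Other families were represented by fewer genes. The serine protease family members CG8170, CG7432 and CG8172 had their largest log2 fold changes, of 2.34, 2.15 and 1.85, in the tracheal gate for the first pair and in the epidermal gate for CG8172. The amino acid transporters CG1698 and CG15279 were called in the tracheal gate, with 1.45 (adjusted p = 0.00480, edgeR) and 2.37 (adjusted p = 6.76e-06, edgeR). CG9518, of the GMC oxidoreductase family, had 2.42 (adjusted p = 3.30e-07, edgeR). CG3108 was called in the epidermal gate, with 2.06 (SE 0.34, adjusted p = 3.62e-05, edgeR).

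The 3 adjacent genes on 3L did not share a pattern of calls. CG13049 was called in the tracheal gate (1.35, SE 0.34, adjusted p = 0.00671, edgeR), as was CG13048 (2.97, SE 0.77, adjusted p = 0.00902, edgeR). CG13047 was not, with 1.06 (SE 0.37, adjusted p = 0.0753, edgeR). The differences among the 3 were not tested. Their levels at 16 to 20 h were 130.8, 50.9 and 168.6 CPM for CG13049, 44.2, 25.2 and 36.8 CPM for CG13048 and 70.5, 25.7 and 72.7 CPM for CG13047, lowest in experiment 3 for each.

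The 5 genes called in the muscle gate alone were CG43897, CG8888, CG45076, CG5177 and CG44245. CG43897 was at 1052, 2724 and 338.98 CPM in the muscle gate of experiments 1, 3 and 10 and at 214.5 CPM or less elsewhere (log2 fold change 4.08, SE 0.40, adjusted p = 6.17e-09, edgeR). CG8888 (2R:12064565-12079543), of the short-chain dehydrogenase family, was at 465.9, 982.7 and 191.5 CPM there and at 120.6 CPM or less elsewhere (3.73, SE 0.41, adjusted p = 8.04e-08, edgeR). CG45076 was at 166.6, 277.4 and 48.6 CPM (3.44, SE 0.45, adjusted p = 1.72e-06, edgeR). In each of these 3 genes the muscle gate of experiment 10 was the lowest of the 3, and in most of the other gates experiment 10 was the highest. CG5177, of the trehalose-phosphatase family, was at 362.1, 495.1 and 341.5 CPM in the muscle gate and reached 245.5 CPM in the tracheal gate of experiment 10 (3.14, SE 0.36, adjusted p = 1.81e-07, edgeR).

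For the 16 genes of the neuronal gate the mean level at 12 to 16 h was closer to that at 16 to 20 h. Their level at 12 to 16 h was a median of 80.7% of that at 16 to 20 h, compared with 53.2% for the 72 genes and 52.7% for the 5 muscle genes. The median of the ratio that ranked the genes was 2.51, 5.23 and 2.59 in the same order. These percentages share the 16 to 20 h level with that ratio and are a description only. The 16 genes encode longer proteins, with a median of 995 residues against 540.5 for all 100. All 16 were lowest in experiment 10 at 16 to 20 h, in which the neuronal markers also took the smallest share of UMIs (0.553%, 0.830% and 0.413% in experiments 1, 3 and 10). Experiment 10 is also part of the mean at 16 to 20 h by which the 80.7% was divided. The part of the marker share in that percentage and in the order of the experiments was not tested. Dpp10 (CG11319, 2L:6568400-6601068) was at 239.1, 423.1 and 254.8 CPM in the neuronal gate, at 34.1 to 49.2 CPM in the muscle gate and at 30.9 CPM or less elsewhere, with 0 in all 3 glial sums. Its log2 fold change was 5.98 (SE 0.36, adjusted p = 3.76e-14, edgeR) in the neuronal gate and 2.34 (SE 0.61, adjusted p = 0.0158, edgeR) in the muscle gate. CG31221 (3R:19412689-19460311) was at 505.4, 679.2 and 414.03 CPM in the neuronal gate and at 65.1 CPM or less elsewhere (4.997, SE 0.31, adjusted p = 2.41e-14, edgeR). CG45002 (X:16969069-17066732) was at 674.2, 882.3 and 677.1 CPM there (4.59, SE 0.27, adjusted p = 9.22e-15, edgeR) and at 120.6 CPM or less elsewhere. Dpp10, CG31221 and CG45002 were named for the largest fold changes called in the neuronal gate, which was clear of every other sum for each. The share of all genes clear in this way was not counted.

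The 2 calls made in 1 gate for 1 gene rest on very different data. CG1092 (3R:4266770-4268316) was at 954.01, 704.5 and 362.03 CPM in the plasmatocyte gate and at 36.6 CPM or less elsewhere (log2 fold change 5.22, SE 0.30, adjusted p = 9.27e-15, edgeR). It had a UMI in 25.1%, 18.1% and 10.3% of the nuclei of that gate. CG6337 (2R:13833575-13835096), which encodes a cathepsin L-like protease, was at 0, 4288 and 0 CPM in the glial gate (3.91, SE 0.77, adjusted p = 0.00227, edgeR). Its 91 UMIs came from 1 of 36 nuclei, so this call describes 1 nucleus and not glia.

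In the fat body gate 28 of the 100 genes were called lower, against 8.96% of all genes tested and 35.7% of the other late rows. In the glial gate 5 were, against 1.46% and 7.64%. For CG15431 the epidermal gate was the lower one (log2 fold change -1.68, SE 0.53, adjusted p = 0.0377, edgeR), against 0.801% of all genes. These lower calls depend on the settings. In the neuronal gate 1 gene was lower, against 2.49% of all genes and 4.46% of the other late rows, both under the main settings. DESeq2 called 15 there and a limit of 1 UMI per gene and nucleus gave 14, where the glial gate had 3 and 0. The fat body count was 17 under that limit and 16 with the gate scaled to depth. With library sizes alone in place of TMM factors, the counts became 58 in the fat body gate and 0 in the glial gate (18 at an unadjusted p under 0.05, and DESeq2 called 3), and the split over all gates went from 95 higher and 32 lower to 97 and 60. The median of all genes moved from -0.22 to -0.78 on the log2 scale in the fat body gate and from -0.40 to 0.17 in the glial gate. Relative to that median the genes barely moved, with 8 and 7 of the 100 above it in the fat body gate under the 2 scalings and 17 and 16 in the glial gate.

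The calls depended most on experiment 1. Without it, 29 genes were called in the tracheal gate and 10 in the epidermal gate, with 94 genes tested, and the count over all gates was 55, while lower calls in the fat body gate numbered 1. Calls for CG12523, CG12164 and CG2150 were then lost (adjusted p = 0.0733, 0.0589 and 0.0756, edgeR), as were those of CG15740, CG13059, CG13049 and CG13048. Epidermal calls fell to 20 among nuclei with at least 400 UMIs, to 28 with no replicate block for the experiments and to 23 with a gate scaled to each nucleus's depth.

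A similar contrast at 14 to 18 h could be fitted for 73 of the 100 genes, and the rest were too low. A gene passed there only where a gate held enough of it, so the counts are given as a description. The fit held 8 gates in place of 7, since a germ cell gate entered it in experiments 1 and 10. In that gate 50 genes were called lower, against 32.5% of all genes, with a median log2 fold change of -3.79. It is part of the mean of the other gates, so the counts cannot be set against those at 16 to 20 h. Of these 73 genes, 72 were higher in at least 1 gate, against 65.2% of the 5966 genes tested. The tracheal gate had 51 (9.67% of all genes), the epidermal gate 49 (14.5%), the muscle gate 20 (6.81%) and the neuronal gate 14 (12.2%). Of the other late rows tested there, 36.8% were higher in each of the tracheal, epidermal and neuronal gates and 27.8% in the muscle gate. The muscle count was 6 with DESeq2, 8 with no replicate block, 5 with nuclei of at least 400 UMIs, and 3, 10 and 29 without experiment 1, 3 or 10. Without experiment 1 the tracheal and epidermal counts were 22 and 24, with 46 genes tested.

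The dip between 12 to 16 h and 14 to 18 h was followed up after the values had been seen, since the ratio used neither of these windows, though membership required both to be below 16 to 20 h. CG32694 went from 103.9, 134.9 and 94.5 CPM at 12 to 16 h to 78.4, 51.4 and 24.04 CPM at 14 to 18 h in experiments 1, 3 and 10, before its 331.2, 397.5 and 199.98 CPM at 16 to 20 h. CG9411 went from 763.99, 522.6 and 607.5 CPM to 395.96, 246.7 and 337.6 CPM. CG45002 went from 100.7, 169.3 and 123.01 CPM to 47.7, 88.3 and 30.9 CPM. All 3 genes were lower in the later of the 2 windows in each experiment.

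By the mean over experiments, 95 of the 100 genes were lower at 14 to 18 h than at 12 to 16 h. The count was 86, 98 and 89 in experiments 1, 3 and 10, and 78 genes were lower in all 3. Of 5606 rows at 20 CPM or more in either window 42.6% were lower, and of the other late rows 96.2% were. The edgeR quasi-likelihood test with experiment as a block called 30 of the 100 lower and 0 higher, against 3.64% and 2.51% of the 9151 genes tested and 32.5% of the other late rows called lower. At an unadjusted p under 0.05 the count of higher genes was also 0, and DESeq2 called 39 lower and 0 higher. The median log2 fold change of the 100 was -0.79 and that of all genes 0.05.

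**Figure D4:**
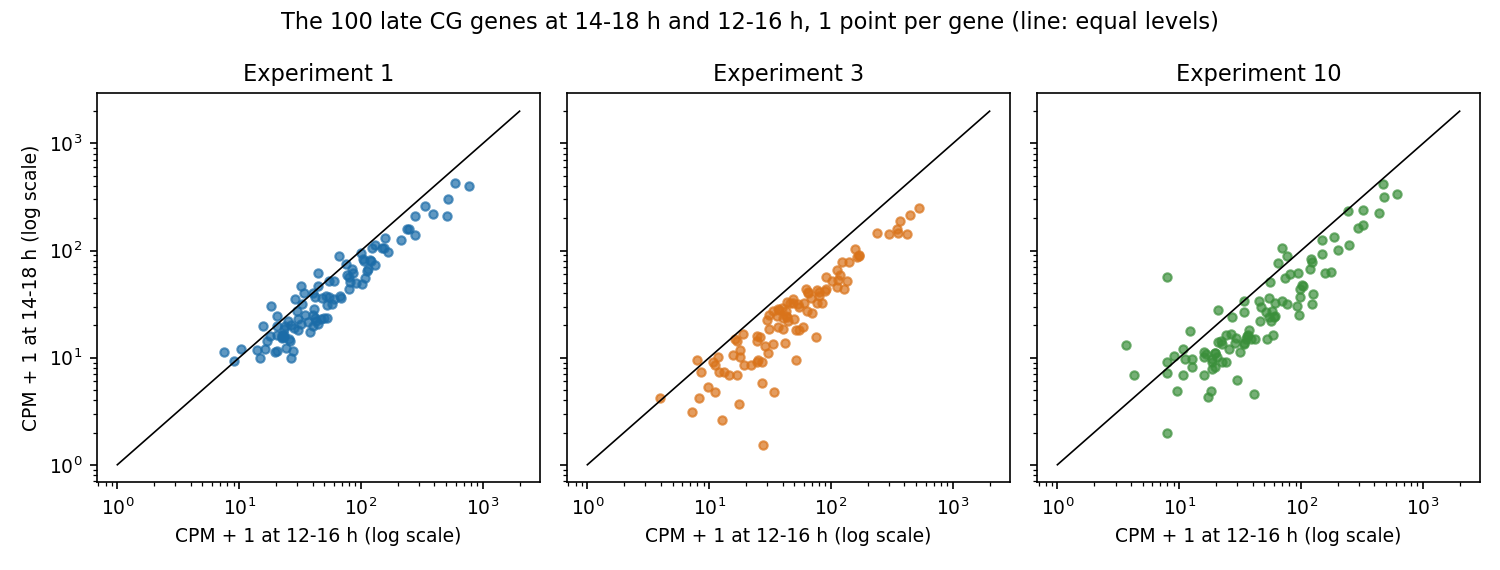
CPM + 1 at 14 to 18 h (vertical axis, log scale) against CPM + 1 at 12 to 16 h (horizontal axis, log scale) for each of the 100 genes. Experiments 1, 3 and 10 each have a panel, in which 86, 98 and 89 genes were lower at 14 to 18 h. By the mean over experiments 95 were lower. The 30 genes called lower by edgeR are not marked.

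The lower level was found in genes of more than 1 gate. Of the 72 epidermal or tracheal genes 20 were called lower, of the 16 neuronal genes 7 and of the 5 muscle genes 1. The calls included CG32694 (log2 fold change -1.21, SE 0.29, adjusted p = 0.0288, edgeR), CG9411 (-0.95, SE 0.22, adjusted p = 0.0265, edgeR), CG5639 (-1.07, SE 0.22, adjusted p = 0.0182, edgeR), CG45002 (-1.31, SE 0.26, adjusted p = 0.0165, edgeR) and Dpp10 (-1.27, SE 0.26, adjusted p = 0.0183, edgeR). CG12523 was not among them (-1.39, SE 0.42, adjusted p = 0.0676, edgeR). The count was sensitive to the nuclei used: 14 genes were called with nuclei of at least 400 UMIs, and 2 when only nuclei whose inferred age lay within their window were kept. Leaving out experiment 1, 3 or 10 gave 13, 16 and 19 genes, of which 8, 14 and 17 were among the 30. With no replicate block for the experiments no gene passed, of the 100 or of all tested, although 36 of the 100 were lower at an unadjusted p under 0.05.

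Marker lists moved with the dip in both directions. Of the 18 lists, 6 were lower at 14 to 18 h in all 3 experiments, 5 were higher in all 3 and 7 differed in direction. From 12 to 16 h to 14 to 18 h the epidermal list went from 0.559%, 0.558% and 0.525% of UMIs to 0.364%, 0.412% and 0.314% in experiments 1, 3 and 10, the tracheal list from 0.474%, 0.373% and 0.465% to 0.322%, 0.290% and 0.335%. The neuronal list went from 0.452%, 0.641% and 0.533% to 0.353%, 0.581% and 0.286%, and the muscle list from 1.28%, 1.98% and 1.63% to 1.06%, 1.10% and 1.06%. The plasmatocyte and sensory organ lists were also lower in each experiment. The glial list went from 0.137%, 0.111% and 0.119% up to 0.157%, 0.133% and 0.141%, and the heart, nephrocyte, salivary gland and visceral muscle lists were higher as well. The fat body list went from 2.05%, 3.19% and 1.23% to 2.36%, 4.31% and 0.805%. The lists' part in the members' difference was not tested. Within the gates the share of the 100 genes was lower too, from 1.63%, 1.52% and 1.56% to 1.31%, 0.810% and 0.892% in the epidermal gate and from 1.73%, 2.13% and 1.82% to 1.54%, 1.07% and 0.828% in the tracheal gate.

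The authors' inferred age, a neural network estimate for each nucleus trained on the collection windows, orders nuclei within a window. Its median was 13.6, 13.8 and 13.9 h at 12 to 16 h, 15.1, 15.1 and 15.6 h at 14 to 18 h and 16.1, 15.7 and 17.7 h at 16 to 20 h. At the same inferred age of 15 to 16 h, the 100 genes took 1.37%, 1.11% and 1.13% of UMIs in nuclei collected at 12 to 16 h. In nuclei collected at 14 to 18 h they took 0.528%, 0.335% and 0.417%, and at 16 to 20 h 1.26%, 1.06% and 1.10%. The window of 14 to 18 h therefore lay below both of its neighbours at matched inferred age in all 3 experiments. At an inferred age of 17 to 18 h the 3 windows of experiment 1 gave 2.72%, 3.27% and 2.41%, and the 14 to 18 h window was not the lowest. The model was trained on expression, in which these genes are included, so the age is not independent of them.

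**Figure D5:**
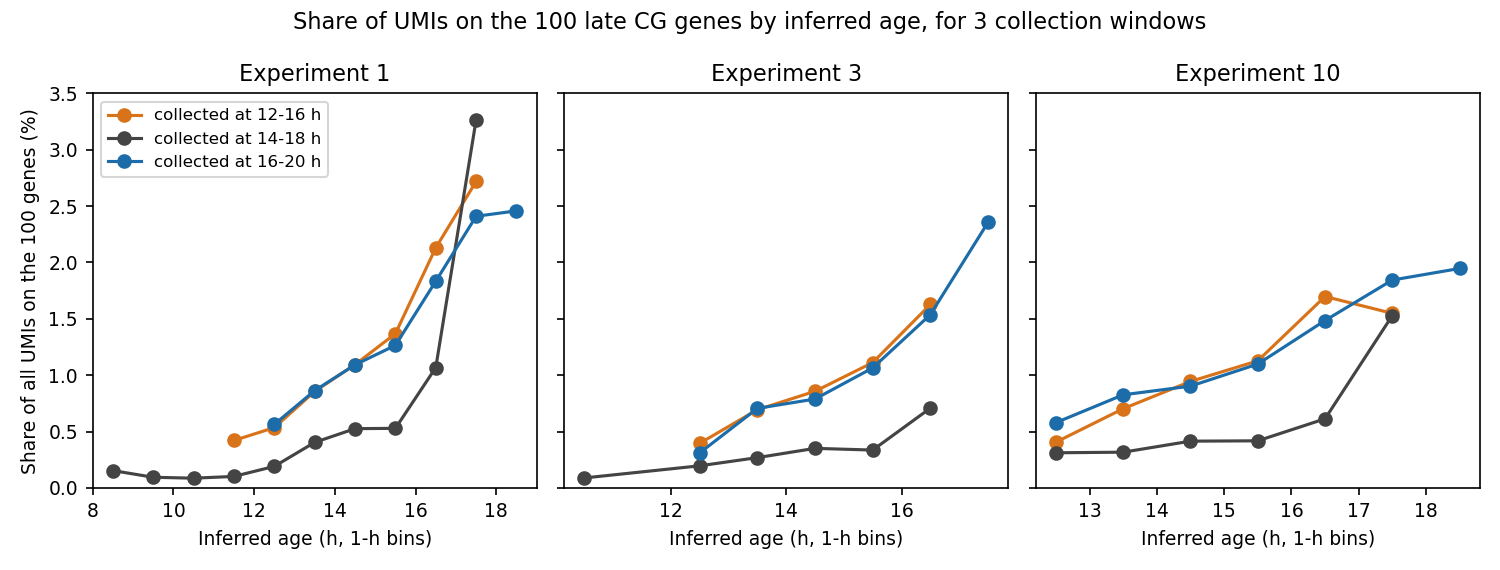
Percentage of UMIs on the 100 genes (vertical axis) against the inferred age of the nuclei in 1 h steps (horizontal axis), for each late collection window and experiment. At 15 to 16 h nuclei collected at 14 to 18 h gave 0.335% to 0.528%, and those of the windows on either side 1.06% to 1.37%.

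Over the other genes of the matrix, with the 100 left out, the profile at 14 to 18 h had a higher correlation with that at 8 to 12 h than the profile at 12 to 16 h had. Pearson's r across genes of log2 levels was 0.810, 0.861 and 0.873 for 14 to 18 h and 0.720, 0.762 and 0.698 for 12 to 16 h in experiments 1, 3 and 10, over 5678, 4658 and 5885 genes, which are not independent replicates. With 10 to 14 h the order was the other way in experiments 1 and 3, with 0.942, 0.928 and 0.953 for 14 to 18 h and 0.967, 0.942 and 0.939 for 12 to 16 h. The profile at 14 to 18 h was closer to its neighbours than to 8 to 12 h, with 0.956, 0.940 and 0.898 for 12 to 16 h and 0.958, 0.927 and 0.942 for 16 to 20 h. The part of this in the dip was not tested.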

How the data were processed

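The deposited matrix holds UMI counts per gene and nucleus of sci-RNA-seq3 libraries, made by the authors from reads aligned with STAR 2.7.3a (builds dm6 and BDGP6 in the submitters' processing notes) and already filtered to nuclei by them. The paper describes removing doublets with a modified DoubletFinder and dropping subclusters rich in them. No further doublet caller was run here. The inferred age of each nucleus is a score deposited by the authors, in hours, and the collection window and experiment come from their table of nuclei. Of 1908 plate-well samples 1475 hold nuclei, and samples were grouped by experiment.

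The members, marker lists and tests were chosen with earlier results of these data known. CPM divides a row's UMIs by all UMIs of its sum. Members named with values were the first 10 by level and by ratio, up to 3 with the largest fold change per gate, the run of 3 adjacent genes, ranks 99 to 102 and the 3 that varied most between experiments. A few others were picked after their values were seen. Of 174 markers in 18 lists, 171 were in the matrix. No member is a marker.

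UMIs of each gate were summed per experiment and tested with edgeR 4.0.16 (quasi-likelihood, TMM factors, filterByExpr, experiment as a block, Benjamini-Hochberg over all genes, 0.05). Experiments share a block because each gives 1 sum to every gate or window. DESeq2 1.42.0 (R 4.3.3), other filters, gates and scalings, nuclei with at least 400 UMIs, no block, each experiment left out, and, added after the data were seen, a gate scaled to depth and a limit of 1 UMI per gene and nucleus were alternatives. The test of 14 to 18 h against 12 to 16 h was also added then. On simulated counts the epidermal contrast (5871 genes) recovered 47% of 2-fold and 88% of 4-fold changes, and the window contrast (9644 genes) 29% and 91%. The simulated counts gave every gene the same spread beyond counting error, with no difference between experiments other than depth. The filter of the simulated window contrast also differed from that of the test, which kept 9151 genes. These rates therefore do not carry over to the fits above. Python 3.11.15, pandas 2.3.3 and matplotlib 3.10.9 were used otherwise. Positions and protein lengths are from Ensembl BDGP6.54, release 115, and current names from RefSeq Release 6. Sequences were not used here.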

Additional observations from a re-analysis of the deposited data

Results flagged for a closer look

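At 1 to 3 h the 100 genes took 0.0273% of UMIs in experiment 10, against 0.00822%, 0.0103% and 0.0105% in the other 3 experiments of that window, and the gap between experiment 10 and the next value was large for a group of 4. Of the 4 groups of sums examined in this way 1 stood out, and chance alone gives such a gap in about 5% of groups. Experiment 10 was also the highest at 0 to 2 h, with 0.0174% against 0.00571%, 0.00491% and 0.00302%, but that gap was not flagged. At 4 to 8 h it was the lowest, with 0.0290% against 0.0743%, 0.0508% and 0.107%. All these values are far below those of the late windows.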

How the results depend on the processing

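The count of 95 genes called higher in a gate at 16 to 20 h stayed within 1.5 times that value except without experiment 1, and leaving out 1 experiment gave 55 to 94. At 14 to 18 h the count of 72 went to 44 with nuclei of at least 400 UMIs, and to 45 to 93 when an experiment was left out, with fewer or more genes passing the filter. Against 30 of the 100 genes called lower at 14 to 18 h than at 12 to 16 h, the alternatives called 49 with no filter on low counts, 14 with nuclei of at least 400 UMIs, 2 with inferred age within the window, 58 with at most 1 UMI per gene and nucleus, 0 with no replicate block and 13 to 19 with an experiment left out. The cause was not tested. Under the rule for membership, 56 of the 100 genes were kept with at least 50 CPM in place of 20 and 80 to 100 under each other change. CG6337 in the glial gate reversed, to a log2 fold change of -9.47 with 3 markers, -10.15 without experiment 3 and -0.35 with the gate scaled to depth. With 3 markers the glial gate of experiment 3 held 12 nuclei, under the 30 needed, so its sum left the fit as it does without that experiment. For the scaled gate the cause was not tested. Without experiment 10 its log2 fold change was 4.77. Among the other values of named genes on the lists, 17 lost their call and 1 gained it. With no replicate block, counts moved by over 1.5 times for the epidermal gate (44 to 28), for lower calls in the fat body gate (28 to 10) and the glial gate (5 to 1) and, at 14 to 18 h, for the muscle gate (20 to 8) and lower calls in the fat body gate (4 to 1). Single lower calls in the epidermal and neuronal gates were lost. Depth limits the low genes and the glial gate most, with 36 nuclei in experiment 3.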
